A study of Mus musculus with 4 samples.

Results

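ADAM and ADAMTS proteases were examined in nuclei of the injured mouse brain, across cell classes, fibroblast states, brain regions and genotypes. Gene rows were chosen by symbol, as every Adam, Adamts, Adamtsl or Adamdec gene followed by a number, with at least 100 unique molecular identifiers (UMIs, each standing for 1 captured transcript) summed over the deposited matrices. Of 33696 gene features, 59 matched by symbol and 42 of these reached 100 UMIs, beside 18597 features of any name that did so. The other 17 were left out, and Adam28 with 78 UMIs and Adam34 with 53 UMIs were the nearest below the limit. Adam3 with 127, Adamts8 with 180 and Adamtsl2 with 190 UMIs were the nearest above it, and Adam12 had the most UMIs, 70211. Adamts4, Adam17 and Adam4 overlap other protein-coding genes in the RefSeq annotation, so a share of their reads is uncertain. These sums set how precisely a gene was measured, and levels were not compared between genes, because no transcript lengths were used.

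Single-nucleus RNA-seq was performed at 21 days post-injury (dpi) on photothrombotic (PT) lesions, focal cortical injuries in which light excites a dye in the blood, and on the surrounding parenchyma. The control library carries the genotype label WT. The Cxcl12-cKO library is labelled Col1a2(creER); Cxcl12(flox), which joins an inducible Cre recombinase driven by the Col1a2 promoter, active in fibroblasts, to a floxed gene for the chemokine CXCL12. By the study's methods, tamoxifen activates the Cre, 2 mice were used per genotype, and tissue of male and female mice was combined. By the same methods, the dura was dissected and processed apart from the lesion and the cortex around it. Each genotype was 1 library, so no difference between genotypes has a replicate check, and no test was made. The age of these mice is not given in the labels. Lesion and parenchyma nuclei of a genotype were told apart by multiplexing tags, which are short oligonucleotides bound to nuclei before pooling at 75% lesion and 25% parenchyma. The tags are shown because every regional value below rests on them; each is written 5′ to 3′.
CMO309, control lesion: gttgatctataacag
CMO310, control parenchyma: gcaggaggtatcaat
CMO311, Cxcl12-cKO lesion: gaatcgtgattcttc
CMO312, Cxcl12-cKO parenchyma: acatggtcaacgctg

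ADAMs are membrane-anchored proteins with a disintegrin and a metalloprotease domain. ADAM10 and ADAM17 shed the outer parts of cytokines, growth factors and receptors, whereas ADAM11, ADAM22 and ADAM23 lack protease activity and bind LGI proteins at synapses. ADAMTS enzymes are secreted and cut extracellular matrix: some cleave the proteoglycans aggrecan, versican and brevican (the hyalectanases), some remove the N-terminal propeptide of procollagens, and some act on fibrillin microfibrils or on cartilage oligomeric matrix protein (COMP). ADAMTS-like proteins share the non-catalytic domains and have no protease domain. Tissue inhibitors of metalloproteinases (TIMPs) restrain both families, and in the injured brain these enzymes are known for remodelling scar matrix and perineuronal nets.

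After filtering, 21743 nuclei remained, and 953 of them were left out because their subclusters held UMIs of both sexes in at least 25% of nuclei, as doublets of nuclei from the pooled mice would. Of the 20790 that were left, 20732 fell into 12 cell classes, named "X-like" from marker genes after clustering without the ADAM and ADAMTS genes. Fibroblast-like nuclei numbered 4204 in the control and 4125 in the Cxcl12-cKO library, and excitatory-neuron-like nuclei 2635 and 2291. The smallest classes were ependymal-like, with 13 and 23 nuclei, and mural-like, with 51 and 28. Total UMIs per matrix ran from 31995274 to 62749811. The libraries shared 47 barcode sequences, 22 of them between the 2 lesion matrices. Cxcl12 itself (ENSMUSG00000061353), the targeted gene, went against its label: lesional fibroblast-like nuclei held 1513 UMIs in the control library, or 106 counts per 1e6 UMIs (CPM), and 3143 UMIs, or 215 CPM, in the Cxcl12-cKO library. On the log2 scale the difference was 1.02 (95% interval 0.93 to 1.11), and the sources used here do not say which part of the gene the floxed allele removes. Groups are therefore named by their labels throughout. Were the labels of the libraries exchanged, every ratio between genotypes given here would change sign, and an exchange was not tested. CPM is the share of a gene in all UMIs of a group of nuclei, scaled to 1e6, and every interval given is a 95% interval that covers counting error only, not the spread between mice.

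The first question was which cells carry each gene. A gene was counted for a class when that class was its highest in both libraries and at least 1.5-fold above the next class in each. Of the 42 genes, 17 met this, beside 22.2% of all 18597 features. They were spread over 11 classes, and no gene was counted for fibroblast-like nuclei (1.04% of all features). In nuclei of the female mice alone 8 were counted, and 7 when each nucleus was classed from its own markers. For these and all later alternatives, the share of all features counted was not computed.

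**Figure D1:**
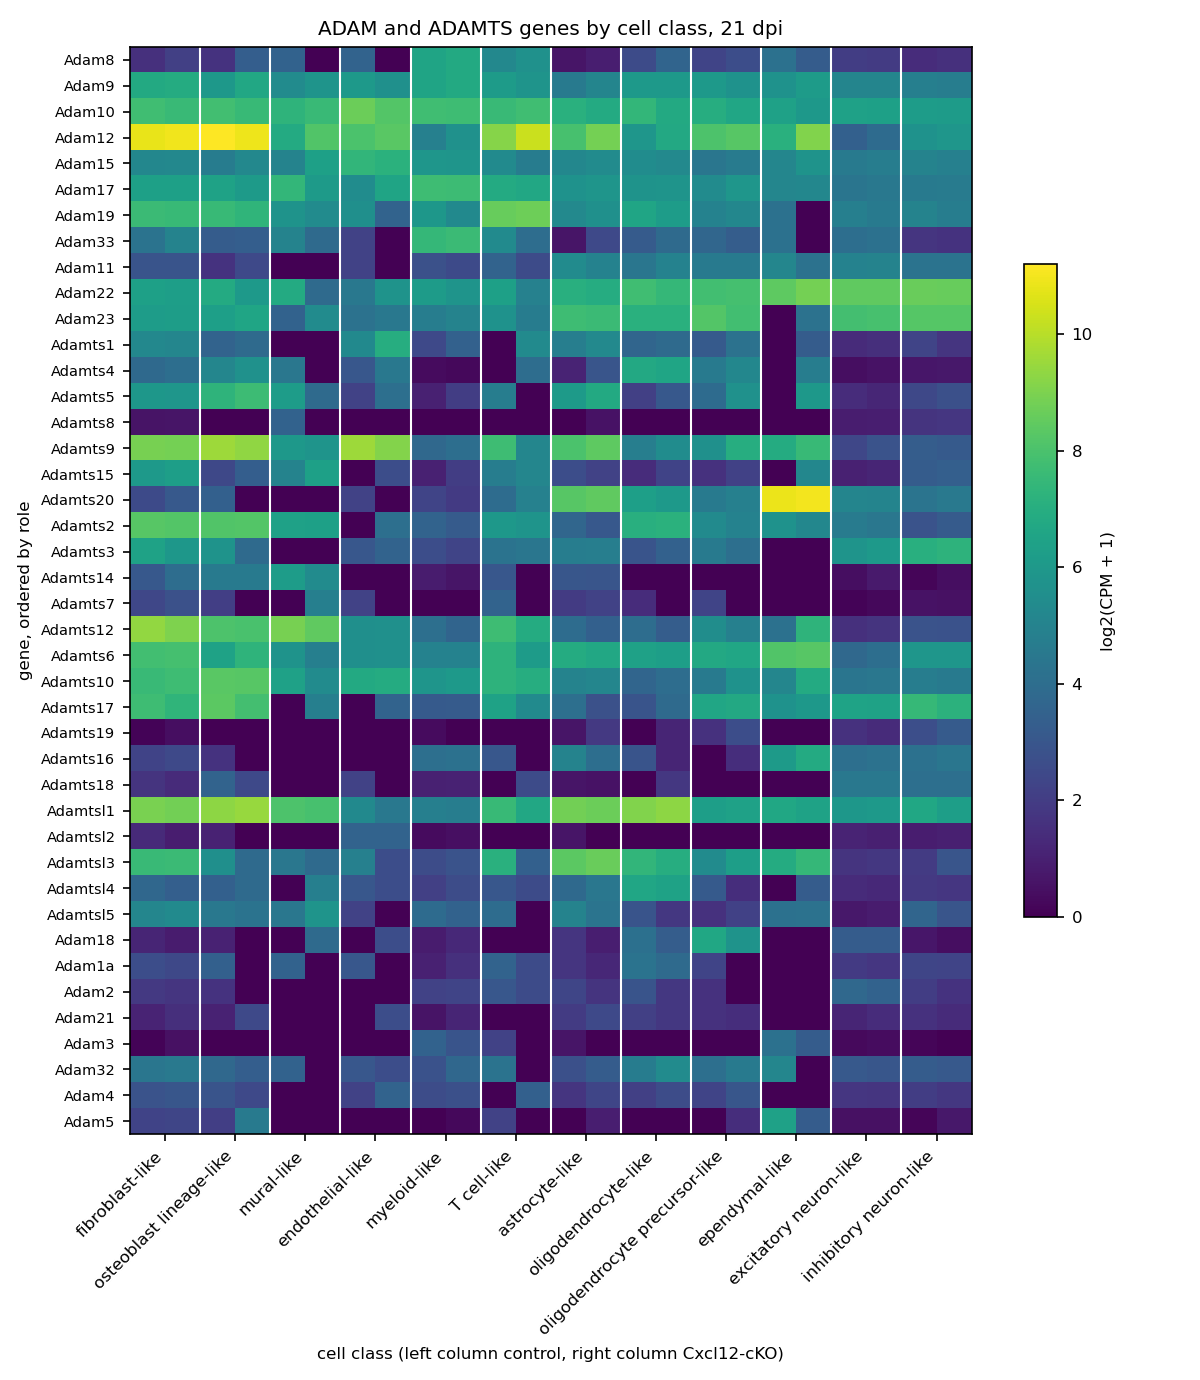
Level of the 42 ADAM and ADAMTS genes, as log2(CPM + 1), in 12 cell classes of the control library (left column of each pair) and the Cxcl12-cKO library (right column). Adam12 is bright in fibroblast-like and osteoblast-lineage-like nuclei, Adam33 and Adam8 in myeloid-like nuclei and Adamts20 in ependymal-like nuclei; most remaining genes are spread over several classes.

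Among the shedding membrane proteases, 4 of 8 were counted for a class. Adam33 was at 173 CPM in control and 200 CPM in Cxcl12-cKO myeloid-like nuclei, and the next class was 4.31-fold and 6.38-fold lower. Adam8, a protease known from leukocytes, was at 91.9 and 109 CPM in the same class. Adam33 is better known from mesenchymal cells of the airway, and here fibroblast-like nuclei held 18.1 and 31.3 CPM. Both genes lay highest in myeloid-like nuclei when all nuclei were used, beside 3.81% of all features counted for that class. The lead of Adam8 over the next class turned to a log2 value of -1.43 in the female mouse of the control, -0.031 in the male mouse of the Cxcl12-cKO library and, by own markers, -0.11 in the Cxcl12-cKO library. The lead of Adam33 kept its direction and was 0.40 in the female mouse of the control.

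Adam19, which processes neuregulins, was at 388 and 425 CPM in T-cell-like nuclei, on 106 and 86 UMIs, and at 199 and 184 CPM in fibroblast-like nuclei (1.78% of all features were counted for the T-cell-like class). That class also held RNA of other cells: the 7 fibroblast markers summed to 1697 CPM in the control and 653 CPM in the Cxcl12-cKO library, against 4254 and 3797 CPM in fibroblast-like nuclei. The part of that RNA in the level of Adam19 was not tested. Adam15 was counted for endothelial-like nuclei, at 164 and 139 CPM on 46 and 26 UMIs (2.07% of all features). Adam10, Adam17 and Adam9, the broad sheddases, were counted for none. Adam10 ranged from 61 CPM in Cxcl12-cKO ependymal-like to 414 CPM in control endothelial-like nuclei, and Adam17 was at 207 and 204 CPM in myeloid-like nuclei against 19.7 and 21.2 CPM in excitatory-neuron-like nuclei.

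Adam12 (ENSMUSG00000054555), a sheddase known from activated mesenchymal cells, was shared by both matrix-forming classes. It reached 1795 CPM in control and 1963 CPM in Cxcl12-cKO fibroblast-like nuclei, and 2347 and 1945 CPM in osteoblast-lineage-like nuclei. Excitatory-neuron-like nuclei held 9.74 and 14.2 CPM and myeloid-like nuclei 28.4 and 49.6 CPM. The osteoblast-lineage-like class, named from markers such as Bglap and Sp7, had 344 and 86 nuclei. With that class, the mural-like and the ependymal-like class set aside, 4 genes were counted for fibroblast-like nuclei: Adam12, Adamts2, Adamts12 and Adamts15. This alternative was chosen after the data were seen, and the share of all features counted in it was not computed.

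Of the 5 procollagen and COMP-cleaving enzymes, 2 were counted for a class. Adamts2, a procollagen N-proteinase, was at 313 and 295 CPM in fibroblast-like and at 287 and 291 CPM in osteoblast-lineage-like nuclei. Adamts14, of the same group, was counted for mural-like nuclei, but on 7 and 3 UMIs only (1.57% of all features). Adamts3, the third procollagen enzyme, stood apart from both and was counted for inhibitory-neuron-like nuclei, at 131 and 148 CPM, with fibroblast-like nuclei at 87.0 and 59.4 CPM (1.74% of all features). Adamts12 (COMP-cleaving) was at 659 and 522 CPM in fibroblast-like and at 480 and 355 CPM in mural-like nuclei. Adamts7, its closest relative, stayed at or below 27.3 CPM in every class.

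Of the 7 hyalectanases, 3 were counted for a class, Adamts4, Adamts20 and Adamts5. Adamts4, which cleaves brevican, was at 108 and 95.5 CPM in oligodendrocyte-like nuclei (1.63% of all features), and the next class, osteoblast-lineage-like, was 3.13-fold and 1.91-fold lower. Adamts20 was at 1897 and 2066 CPM in ependymal-like nuclei, on 112 and 237 UMIs from 13 and 23 nuclei, and at 315 and 356 CPM in astrocyte-like nuclei (3.54% of all features were counted for the ependymal-like class). Adamts5 was counted for osteoblast-lineage-like nuclei, at 157 and 204 CPM (0.946% of all features). Adamts9 was high in several classes. It was at 744 and 650 CPM in osteoblast-lineage-like, 745 and 551 CPM in endothelial-like and 472 and 467 CPM in fibroblast-like nuclei. Adamts15 was at 64.2 and 76.4 CPM in fibroblast-like nuclei, and Adamts1 was at 39.2 and 123 CPM in endothelial-like nuclei. Adamts8 stayed at or below 10.4 CPM in every class.

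Of the ADAMTS-like genes, Adamtsl3 was counted for astrocyte-like nuclei, at 335 and 395 CPM (1.2% of all features), above fibroblast-like nuclei at 194 and 198 CPM. Adamtsl4 was counted for oligodendrocyte-like nuclei at 97.7 and 86.7 CPM. Oligodendrocyte-like nuclei thus carried Adamts4 and Adamtsl4, and they also held Adam1a, at 18.2 and 13.8 CPM on 11 UMIs in each library. Adamtsl2 was counted for endothelial-like nuclei on only 3 and 2 UMIs. Adamtsl1 was spread over oligodendrocyte-like (538 and 636 CPM), osteoblast-lineage-like (626 and 713 CPM), fibroblast-like (490 and 455 CPM) and astrocyte-like nuclei (449 and 407 CPM).

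Among the LGI-binding ADAMs, Adam22 was at 357 CPM in excitatory-neuron-like nuclei of both libraries and at 399.6 and 384 CPM in inhibitory-neuron-like nuclei. Adam23 was at 232 and 242 CPM in the first and 299 and 298 CPM in the second, and at 294 and 225 CPM in oligodendrocyte-precursor-like nuclei. Adam11 was at 29.9 and 30.8 CPM in excitatory-neuron-like and at 40.8 and 30.4 CPM in astrocyte-like nuclei. None of the 3 was counted for a class. The fibrillin-linked Adamts19 was counted for inhibitory-neuron-like nuclei at 5.42 and 8.27 CPM, and Adamts16 for ependymal-like nuclei on 4 and 13 UMIs. Of genes best known from testis, Adam18 was counted for oligodendrocyte-precursor-like nuclei, at 101 and 52.8 CPM on 51 and 30 UMIs (0.946% of all features). By own markers its log2 lead turned to -1.02 in the Cxcl12-cKO library. Adam2 was counted for excitatory-neuron-like nuclei, at 12.6 and 10.6 CPM (1.9% of all features). Its lead turned to -0.10 in the Cxcl12-cKO library by own markers, and in the control to -0.17 with high doublet scores removed and to -0.10 by mean CPM per nucleus.

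Parenchymal neurons were divided further into layer-like and interneuron-like subclusters, named from markers. Adamts3 was at 373 and 409 CPM in the striatal-like subcluster, on 95 and 106 nuclei, and at 2.05 to 93.5 CPM in the other 7 subclusters. Adam23 was at 533 and 498 CPM in the same subcluster, against 170 to 303 CPM elsewhere. Both were thus highest in striatal-like neurons in each library, while Adam22 ranged only from 279 to 489 CPM over the 8 subclusters. Adamts17 was at 417 and 363 CPM in Adarb2-interneuron-like nuclei and at 151 and 128 CPM in the next, the Pvalb-or-Sst-interneuron-like nuclei. Adarb2-interneuron-like nuclei also held 178 and 187 CPM of Adam12 and 166 and 169 CPM of Adamtsl1. Adam33 was at 46.1 and 48.7 CPM in middle-layer-like nuclei, and Adam2 at 36.3 and 27.9 CPM in upper-layer-like nuclei. Adamts15 was at 17.5 and 19.4 CPM in Pvalb-or-Sst-interneuron-like nuclei and at or below 8.2 CPM in the others.

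The second question was how the genes vary among lesional fibroblasts, the cells the Cre driver targets. Lesional fibroblast-like nuclei, 4153 in the control and 4075 in the Cxcl12-cKO library, were clustered into 4 states without the ADAM and ADAMTS genes. State 0 was named late-inner-like because all 6 genes of that marker list, Fgf13, Cdh18, Sema3c, Postn, Col12a1 and Col11a1, were higher in it than in the other states. Postn is also a known marker of myofibroblasts. State 3 was named leptomeningeal-like. States 1 and 2 stayed unnamed, with pial and dural border markers as their best lists. A gene was counted for a state by the same rule, and 10 of 42 were, beside 9.78% of all features. No test was made of that difference.

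**Figure D2:**
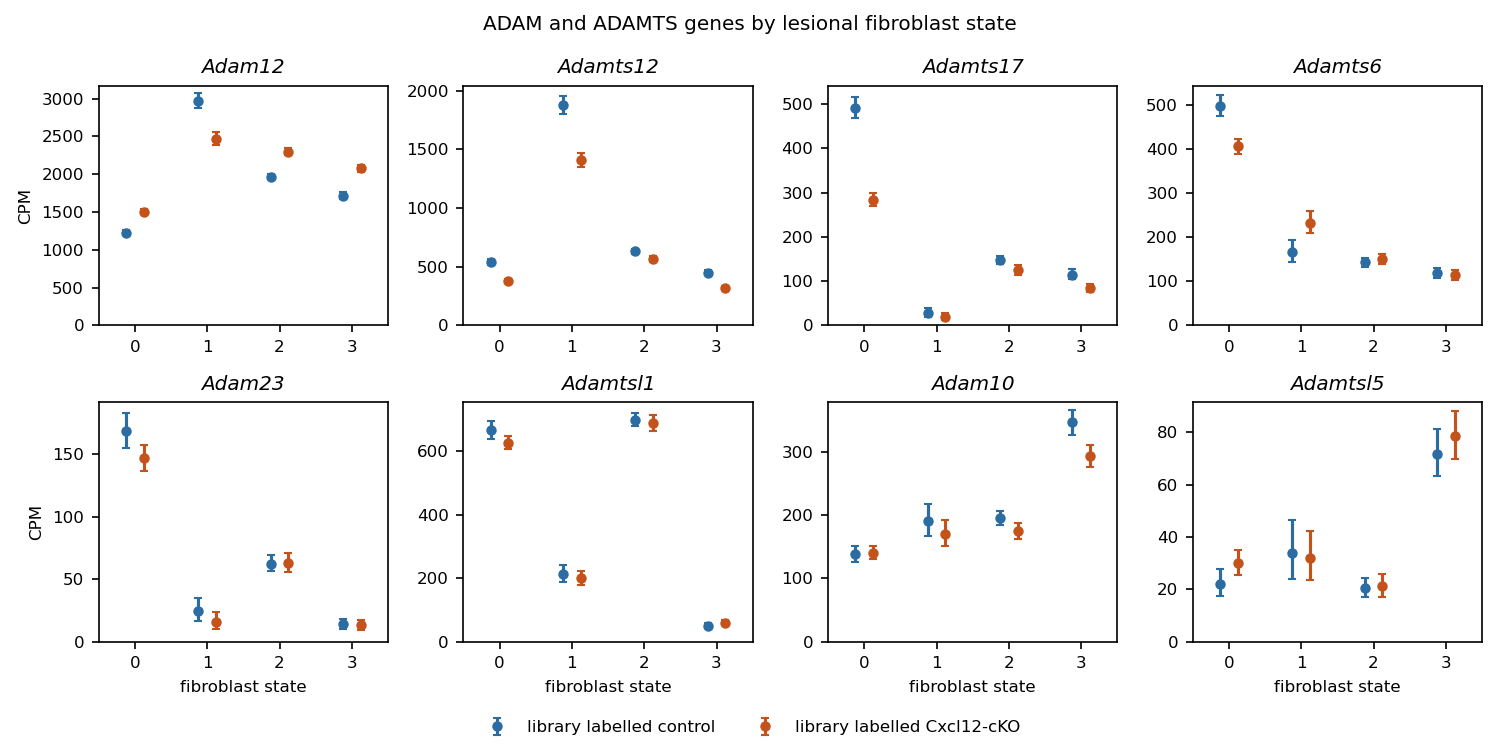
CPM of 8 genes in 4 lesional fibroblast states, for the libraries labelled control and Cxcl12-cKO, with 95% exact Poisson intervals for counting error; every axis starts at 0. State 0 is late-inner-like and state 3 leptomeningeal-like: Adamts17, Adamts6 and Adam23 are highest in state 0, Adamts12 and Adam12 in state 1, and Adam10 and Adamtsl5 in state 3, in both libraries.

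Late-inner-like fibroblasts accounted for 7 of the 10 (2.92% of all features were counted for this state). Adamts17 was at 492 CPM in the control and 284 CPM in the Cxcl12-cKO library, against at most 147 CPM in any other state. Adamts6 was at 498 and 406 CPM, with the next state at 168 and 233 CPM. Both are enzymes linked to fibrillin microfibrils. Adam23 was at 169 and 147 CPM, with state 2 next at 62.4 and 62.7 CPM. Adam33 was at 32.0 and 56.9 CPM, and Adamts20 at 8.52 and 13.6 CPM. Adamts7 was at 9.69 and 11.1 CPM, and Adamts18 rested on 12 and 14 UMIs. In the female mouse of the control, the lead over the next state turned to -0.39 on the log2 scale for Adamts20 and -0.57 for Adamts18.

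In the other states, Adamts12 was counted for state 1, at 1876 and 1412 CPM against at most 631 CPM elsewhere (3.37% of all features). Adam12 was also highest there, at 2971 and 2471 CPM, although its next state, state 2, held 1968 and 2295 CPM, so it was not counted. Adam10 and Adamtsl5 were counted for leptomeningeal-like fibroblasts (1.84% of all features). Adam10 was at 347 and 293 CPM there and at 138 to 196 CPM in the others, and Adamtsl5 was at 71.8 and 78.4 CPM. No gene was counted for state 2 (1.65% of all features).

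A further 3 genes were highest in states 0 and 2. Adamtsl1 was at 666 and 626 CPM in state 0 and at 699 and 688 CPM in state 2, with 212 and 199 CPM in state 1 and 49.6 and 59.3 CPM in leptomeningeal-like fibroblasts. Adamts9 was at 797 and 663 CPM in state 0 and at 579.6 and 682 CPM in state 2, with 293 and 239 CPM in state 1 and 43.9 and 48.7 CPM in state 3. State 1 was thus intermediate for both genes. Adamtsl3 was at 202 and 201 CPM in state 0 and at 299 and 368 CPM in state 2, against 5.21 to 22.3 CPM in the others. These genes were picked after their values were seen. With finer clusters (resolution 0.5 in place of 0.25), 3 genes were counted for a state, Adamts12, Adamts6 and Adamts9.

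Lesional myeloid-like nuclei were divided in the same way. The main states were one led by F13a1 and Mrc1 (state 0, 629 and 880 nuclei), called here by those genes, and a homeostatic-microglia-like state led by Sall3 and Sall1 (state 1, 865 and 1020 nuclei). A monocyte-or-dendritic-like state (state 3) held 43 and 67 nuclei. Adam33 was higher in microglia-like nuclei, at 225 and 270.2 CPM, than in state 0, at 127 and 158 CPM. Adam8 was the reverse, at 71.1 and 72.2 CPM in microglia-like nuclei and 125 and 153 CPM in state 0. The 2 genes counted for the myeloid-like class thus had opposite orders in these states in both libraries.

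**Figure D3:**
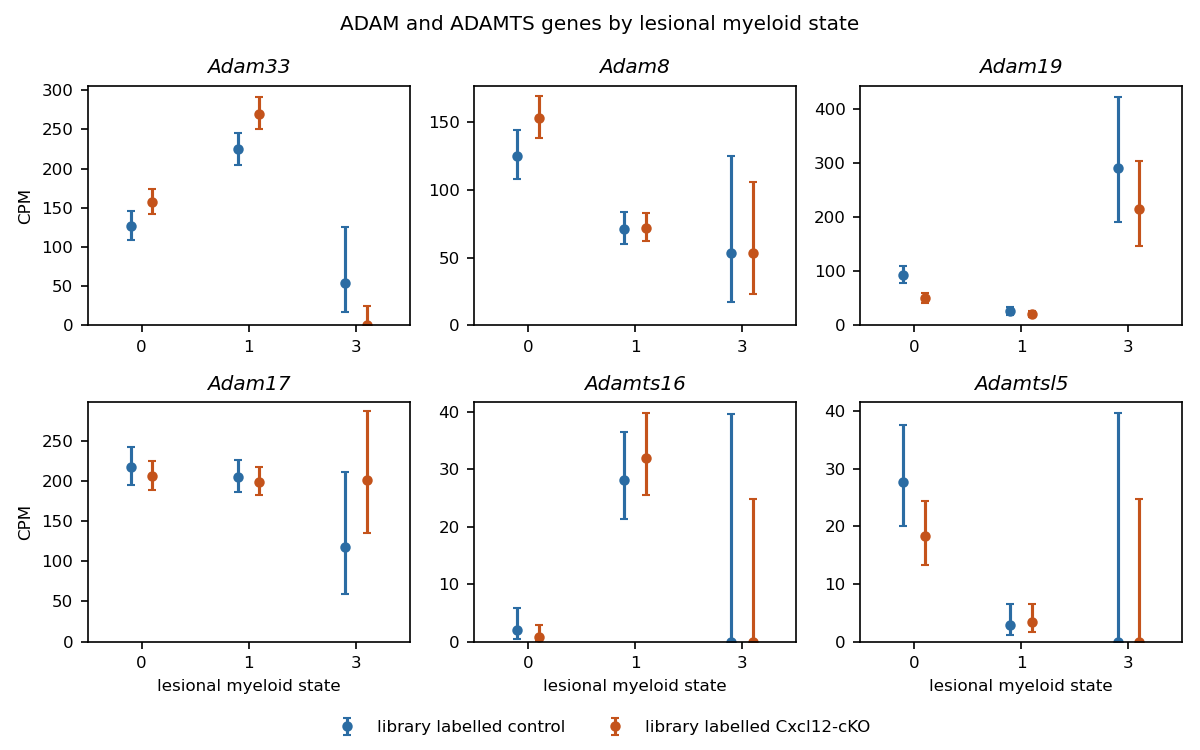
CPM of 6 genes in 3 lesional myeloid states (0 F13a1 and Mrc1 led, 1 homeostatic-microglia-like, 3 monocyte-or-dendritic-like) in both libraries, with 95% exact Poisson intervals for counting error; every axis starts at 0. Adam33 and Adamts16 are higher in state 1 than in state 0, Adam8 and Adamtsl5 are higher in state 0, and Adam17 is level between them.

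Adamts16 was at 28.1 and 32.0 CPM in microglia-like nuclei and at 1.98 and 0.794 CPM in state 0. Adam3 followed it, at 18.3 and 12.7 CPM in microglia-like nuclei and at 0.661 and 0 CPM in state 0. Adamtsl5 was the opposite, with 2.96 and 3.47 CPM in microglia-like nuclei and 27.8 and 18.3 CPM in state 0. Adam17, which releases tumour necrosis factor from the membrane, was level, at 218 and 207 CPM in state 0 and 205 and 199.5 CPM in microglia-like nuclei. Adam23 was highest in monocyte-or-dendritic-like nuclei, at 289.8 and 550 CPM, on 27 and 82 UMIs.

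The genotypes were compared first in lesional fibroblast-like nuclei, the cells in which the Cre is active. Of the 42 genes, 36 had at least 50 UMIs over both libraries and could be compared. Most of them differed little. The median log2 ratio was 0.04, beside 0.002 over all 14310 features compared, and 4 genes were higher in the library labelled Cxcl12-cKO by more than 1.5-fold (3.24% of all features), while none was lower (2.54%; 5.77% in either direction). The intervals, which cover counting error only, lay above 0 for 10 genes and below 0 for 8. The share of all features with such intervals is not given here, so these counts have no background.

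**Figure D4:**
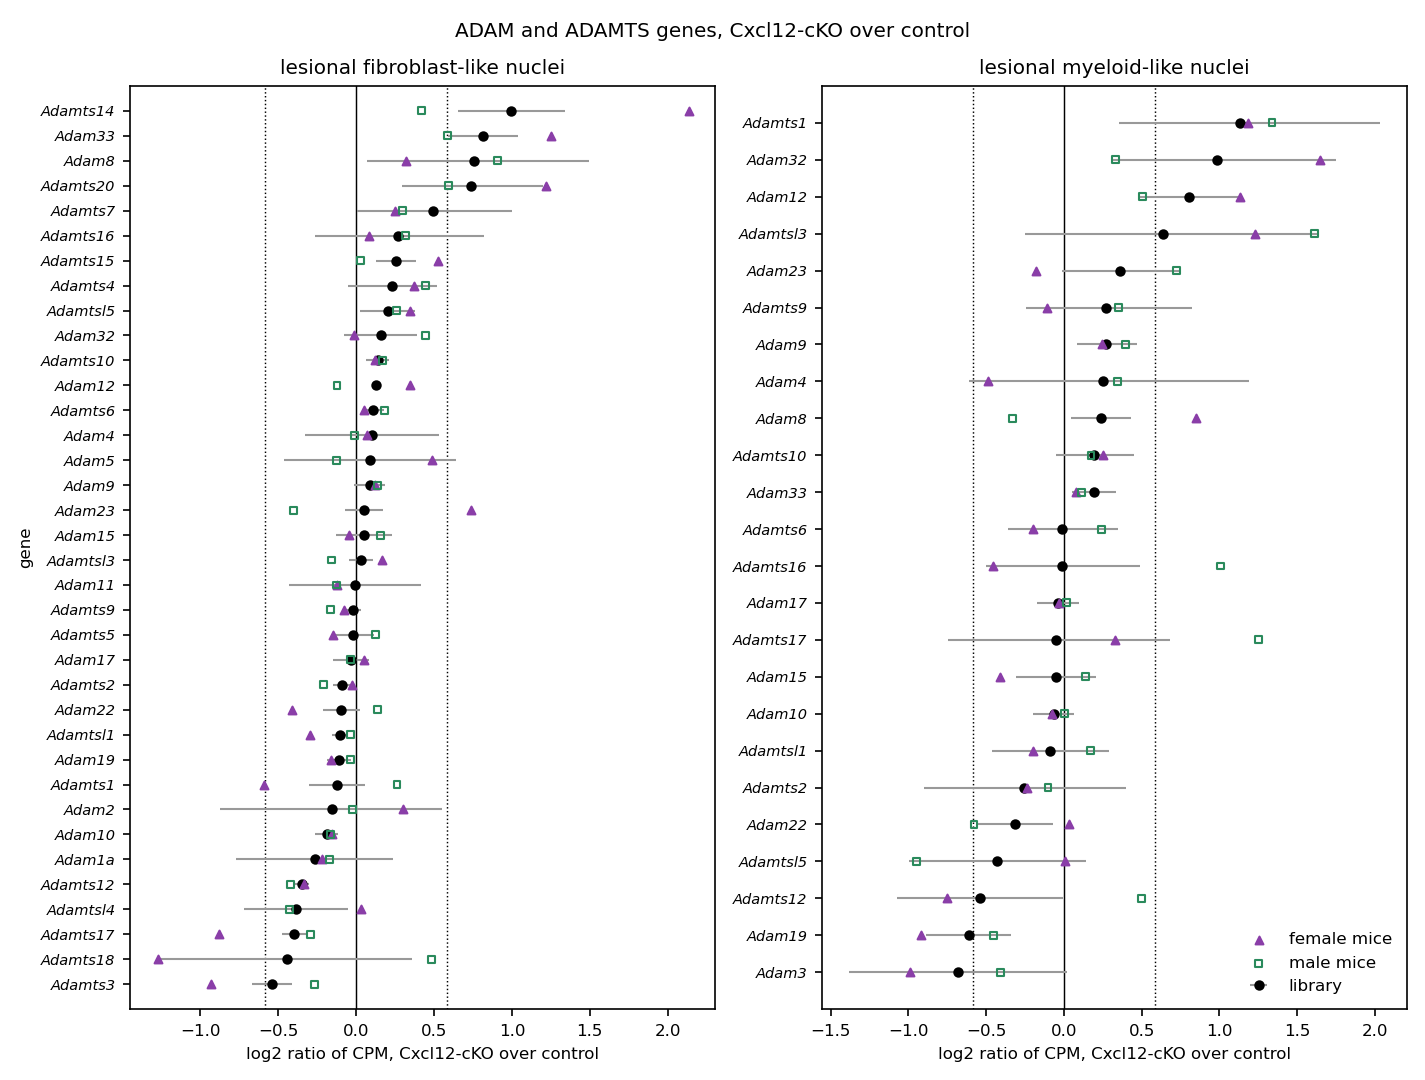
log2 ratio of CPM, Cxcl12-cKO over control, for the 36 genes compared in lesional fibroblast-like nuclei and the 24 compared in myeloid-like nuclei. Black points and grey lines are the library ratio with its 95% counting interval, triangles the female and open squares the male mice alone, and dotted lines mark 1.5-fold; in fibroblast-like nuclei Adamts14, Adam33, Adam8 and Adamts20 lie past it on the right and none on the left.

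Adamts14, a procollagen N-proteinase, was at 7.51 CPM in the control and 15.0 CPM in the Cxcl12-cKO library, a log2 ratio of 0.99 (0.66 to 1.34), on 107 and 219 UMIs. Its ratio was 2.13 in nuclei assigned to the female mice and 0.42 in those of the male mice, so the female mice alone were past 1.5-fold. Adam33 was at 17.8 CPM in the control and 31.3 CPM in the Cxcl12-cKO library, a log2 ratio of 0.81 (0.59 to 1.04), with 1.25 in female and 0.59 in male mice. Adamts20 was at 4.70 CPM in the control and 7.86 CPM in the Cxcl12-cKO library, a log2 ratio of 0.74 (0.30 to 1.20), with 1.22 and 0.60 in the 2 sexes. These ratios had 1 direction in both sexes, with 1 mouse of each sex per library. In male mice, however, the intervals of Adamts14 (-0.10 to 0.96) and Adamts20 (-0.06 to 1.28) held 0.

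Adam8 rested on 28 UMIs in the control and 49 in the Cxcl12-cKO library, a log2 ratio of 0.76 (0.07 to 1.49), with 0.32 in female and 0.91 in male mice and intervals that held 0 in each. Adam33 and Adam8 are also the genes counted for the myeloid-like class, and the 7 myeloid markers in these fibroblast-like nuclei summed to 49.8 CPM in the control and 60.6 CPM in the Cxcl12-cKO library. The part of that RNA in either ratio was not tested. Adam33, Adamts20 and Adamts14 were all highest in the late-inner-like state, whose share of lesional fibroblast-like nuclei was 24.6% in the control and 32.5% in the Cxcl12-cKO library. With the states held at their control shares, the log2 ratios were 0.72 for Adam33, 0.61 for Adamts20, 0.75 for Adamts14 and 0.81 for Adam8.

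Several well-counted genes lay within 1.5-fold with intervals clear of 0. Adamts3 was at 87.4 and 60.2 CPM, a log2 ratio of -0.54 (-0.66 to -0.41), with -0.93 in female mice, past 1.5-fold, and -0.27 in male mice. Adamts17 was at 212 and 161 CPM, a ratio of -0.40 (-0.48 to -0.32), with -0.88 in female and -0.29 in male mice, so that the female mice alone were past 1.5-fold. Adamts12 was at 666 and 523 CPM, a ratio of -0.35 (-0.39 to -0.30), and was alike in female and male mice, at -0.33 and -0.42. The procollagen enzymes thus lay on both sides of 0, with Adamts14 above, Adamts3 below and Adamts2 at -0.09 (-0.15 to -0.03). Adam12 was at 1809.8 and 1977 CPM, a ratio of 0.13 (0.10 to 0.15), with 0.35 in female and -0.12 in male mice. Adam10 was at -0.19 (-0.26 to -0.12), and Adam17 at -0.03 (-0.15 to 0.09).

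Partner genes of these enzymes came from a list of 41 inhibitors, activators, ligands and substrates, of which 34 could be compared in fibroblast-like nuclei. Of these, 4 were higher by more than 1.5-fold (3.24% of all features) and none was lower (2.54%). Among the inhibitors, Timp1 was at 14.6 CPM in the control and 22.4 CPM in the Cxcl12-cKO library, a log2 ratio of 0.61 (0.36 to 0.87), with 0.84 in female and 0.56 in male mice. A2m was at 4.70 and 7.39 CPM, a ratio of 0.65 (0.20 to 1.11). Rhbdf2 carries ADAM17 to the cell surface. It was at 5.82 CPM in the control and 11.8 CPM in the Cxcl12-cKO library, a ratio of 1.02 (0.64 to 1.42), with 1.44 in female and 0.80 in male mice. Lesional myeloid-like nuclei held 79.8 and 78.1 CPM of Rhbdf2, and the part of myeloid RNA in its ratio was not tested. Ltbp2, a microfibril protein, was at 79.1 CPM in the control and 168 CPM in the Cxcl12-cKO library, a ratio of 1.09 (0.99 to 1.19). That of Ltbp2 was 1.91 in female and 0.68 in male mice. Of the substrates, Col1a2 had a log2 ratio of -0.46 (-0.49 to -0.44) and Col1a1 of -0.03 (-0.07 to 0.02). The Cre is driven by the Col1a2 promoter, and an effect of that allele on Col1a2 was not tested. Pcsk5, a proprotein convertase, was at -0.43 (-0.47 to -0.40), with -0.74 in female and -0.23 in male mice.

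In lesional myeloid-like nuclei, a class the Cre driver is not known to target, 24 genes could be compared. The median log2 ratio was -0.01, beside -0.02 over 11308 features, and 4 genes were higher (3.05% of all features) and 2 lower (3.84%; 6.89% either way) in the library labelled Cxcl12-cKO. Adam12 was at 28.7 CPM in the control and 50.3 CPM in the Cxcl12-cKO library, a ratio of 0.80 (0.48 to 1.14), on 107 and 276 UMIs, with 1.13 (0.57 to 1.78) in female and 0.50 (-0.14 to 1.18) in male mice. Of these UMIs, 1 and 51 came from a small dividing state of 21 and 52 nuclei, at 11.04 and 220 CPM. Without that state, an alternative chosen after the data were seen, Adam12 was at 29.2 and 42.8 CPM, a ratio of 0.55 (0.21 to 0.90), within 1.5-fold. It was also within 1.5-fold by own markers, at 0.13, and with subclusters of both sexes kept, at 0.45. In state 0 it was at 30.4 and 37.7 CPM, and in microglia-like nuclei at 26.6 and 44.8 CPM. Adam12 was highest in the matrix-forming classes. The 7 fibroblast markers, none at 0, summed to 361 CPM in control and 229 CPM in Cxcl12-cKO myeloid-like nuclei. Col1a1 and Col1a2, both in that list, had log2 ratios of -0.73 and -0.90 in these nuclei. Col1a2 was also lower in lesional fibroblast-like nuclei, at -0.46. The part of fibroblast RNA in the ratio of Adam12 was not tested.

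Adam19 was at 60.5 CPM in the control and 39.5 CPM in the Cxcl12-cKO library, a log2 ratio of -0.61 (-0.89 to -0.34), with -0.92 in female and -0.46 in male mice, the latter within 1.5-fold. Most of the difference lay in state 0, at 92.6 and 50.0 CPM, with microglia-like nuclei at 26.6 and 21.2 CPM. The part of fibroblast RNA in these ratios was not tested. The other 4 rested on few UMIs. Adamts1 had 17 in the control and 56 in the Cxcl12-cKO library, a ratio of 1.13 (0.35 to 2.04), and Adam32 had 23 and 68, a ratio of 0.98 (0.30 to 1.75). Adamtsl3 and Adam3 had intervals that held 0, at 0.63 (-0.25 to 1.64) on 15 and 35 UMIs and -0.68 (-1.38 to 0.02) on 38 and 35 UMIs. In male mice alone none of these 6 had both 50 UMIs and a ratio past 1.5-fold. Adam33 and Adam8, the genes counted for this class, were within 1.5-fold, at 0.19 (0.06 to 0.34) and 0.24 (0.05 to 0.43), and Adam8 was at 0.85 in female and -0.33 in male mice.

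The regions were compared within each library in neurons, the class with many nuclei in both. Lesional excitatory-neuron-like nuclei numbered 449 and 215, and parenchymal ones 2186 and 2076. A gene was counted when it passed 1.5-fold in the same direction in both libraries. Of 37 genes compared, 1 was higher (1.51% of all 16903 features) and 7 were lower in the lesion (18.9%; 20.4% either way). The 7 are close to that background. The median log2 ratio was 0.01 and -0.03 in the 2 libraries, beside -0.18 and -0.16 over all features.

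**Figure D5:**
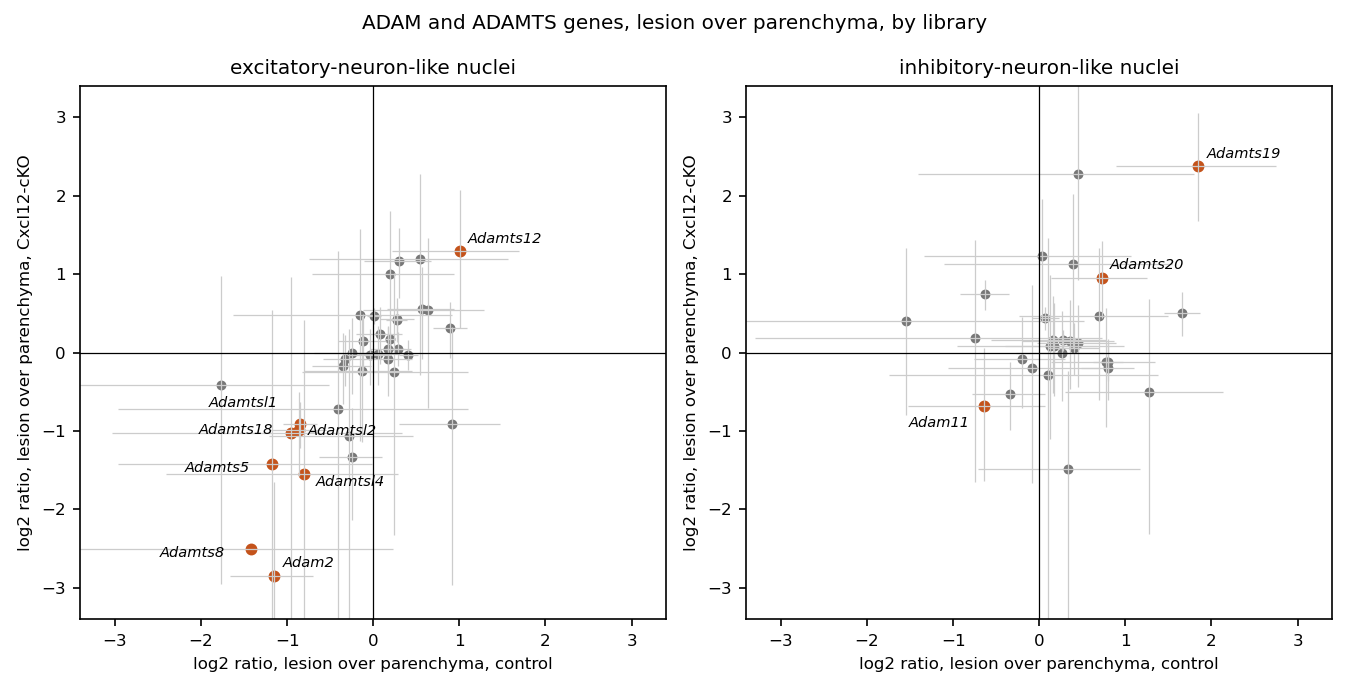
log2 ratio of CPM, lesion over parenchyma, in the control library (x axis) and the Cxcl12-cKO library (y axis), for excitatory-neuron-like and inhibitory-neuron-like nuclei; each point is a gene, grey lines are 95% counting intervals cut off at the frame, and orange points are past 1.5-fold the same way in both libraries. Adam2 and Adamts8 lie at the lower left and Adamts12 at the upper right for excitatory neurons, and Adamts19 at the upper right for inhibitory neurons.

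Adam2 was at 13.7 CPM in parenchyma and 6.12 CPM in lesion of the control, a log2 ratio of -1.15 (-1.66 to -0.70), and at 11.3 and 1.40 CPM in the Cxcl12-cKO library, a ratio of -2.84 (-4.90 to -1.65) on 438 and 4 UMIs. Adamts18 was at 22.7 and 12.4 CPM in the control and at 21.8 and 10.8 CPM in the Cxcl12-cKO library, with ratios of -0.86 (-1.21 to -0.55) and -0.99 (-1.58 to -0.50). Adamtsl1 was at 63.0 and 34.9 CPM and at 68.6 and 36.3 CPM, with ratios of -0.85 (-1.05 to -0.66) and -0.91 (-1.22 to -0.64). These 3 were lower in both lesions with intervals clear of 0. In the male mouse of the control, Adam2 was at -0.35 and Adamts18 at -0.42, and Adamts18 was at -0.40 in the female mouse of the Cxcl12-cKO library. By own markers Adamtsl1 was at -0.37 and -0.27, and all these values were within 1.5-fold. Adamts5, Adamtsl2 and Adamtsl4 had at most 6 lesional UMIs in a library, and their intervals held 0 except that of Adamts5 in the control, at -1.17 (-2.97 to -0.01). Adamts8 had 2 lesional UMIs in the control and 0 of 2866175 in the Cxcl12-cKO library, which allows up to 1.05 CPM, and the parenchyma held 0.977 CPM there. A difference in Adamts8, Adamtsl2 or Adamtsl4 was not detectable at this depth.

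Adamts12 was the gene counted as higher, from 1.66 to 3.28 CPM in the control and from 2.06 to 4.88 CPM in the Cxcl12-cKO library, with log2 ratios of 1.00 (0.21 to 1.70) and 1.29 (0.31 to 2.08). It was also highest in fibroblast-like nuclei in both libraries, by 1.37-fold and 1.47-fold over the next class, and the fibroblast markers summed to 75.4 and 51.6 CPM in lesional against 32.1 and 32.0 CPM in parenchymal excitatory-neuron-like nuclei. The part of that RNA in the difference was not tested. The other genes that were counted for fibroblast-like nuclei once 3 classes were set aside had mixed ratios. Adam12 was at -0.24 (-0.69 to 0.15) and -0.01 (-0.53 to 0.44), Adamts2 at 0.90 (0.69 to 1.09) and 0.31 (-0.06 to 0.65), and Adamts15 at 0.55 (-0.74 to 1.56) and 1.19 (-0.29 to 2.27). Lesional nuclei were also shallower, with a median of 13636 and 12781 UMIs against 17470 and 18411. With subclusters held at their parenchymal shares, 9 genes were counted, and the ratios of Adam2 were -1.15 and -2.51 and of Adamts12 1.11 and 1.47.

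Adam22, Adam10 and Adam23 lay within 1.5-fold in both libraries. Adam22 was slightly higher in lesions, at log2 ratios of 0.19 (0.13 to 0.25) and 0.17 (0.08 to 0.26), and so was Adam10, at 0.27 (0.15 to 0.39) and 0.41 (0.24 to 0.58). Adam23 was level in the control, at 0.01 (-0.07 to 0.09), and at 0.47 (0.37 to 0.56) in the Cxcl12-cKO library. Among the partner genes, the inhibitors Timp3 and Timp4 were lower in both lesions. Timp4 was at 27.0 and 5.08 CPM in parenchyma and lesion of the control, a ratio of -2.39 (-2.95 to -1.92), and at -2.23 (-3.16 to -1.53) in the Cxcl12-cKO library. Timp3 was at -2.18 (-2.78 to -1.68) and -2.04 (-3.06 to -1.28). Bcan, which encodes brevican, and Lgi2, a ligand of the ADAM22 family, were also lower by more than 1.5-fold in both lesions. Of all features, 18.9% were lower in this way. The part of RNA of other cells in these differences of partner genes was not tested.

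Inhibitory-neuron-like nuclei, 114 and 127 in lesions and 498 and 542 in parenchyma, allowed 29 genes to be compared. Of these, 2 were higher (1.34% of all 12948 features) and 1 was lower (14.9%; 16.3% either way). Adamts19 was at 3.86 CPM in parenchyma and 13.8 CPM in lesion of the control, a log2 ratio of 1.85 (0.89 to 2.75), on 27 and 18 UMIs. In the Cxcl12-cKO library it was at 5.36 and 27.8 CPM, a ratio of 2.38 (1.68 to 3.05), on 44 and 34 UMIs. Adamts20 had ratios of 0.72 (0.14 to 1.25) and 0.95 (0.44 to 1.42), with 0.22 in the female mouse of the control. Both were thus higher in each lesion. Adam11 was lower, at -0.64 (-1.53 to 0.07) and -0.69 (-1.64 to 0.06), with intervals that held 0.

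The make-up of lesional inhibitory neurons differed between libraries. Striatal-like nuclei were 7.02% of them in the control and 36.2% in the Cxcl12-cKO library, against 19.1% and 19.6% in parenchyma. Adamts3, which is highest in those nuclei, had a ratio of -0.63 (-0.92 to -0.36) in the control and 0.74 (0.54 to 0.93) in the Cxcl12-cKO library. With subclusters held at their parenchymal shares, 4 genes were counted, and Adamts19 kept ratios of 2.01 and 2.41 and Adam11 of -0.66 and -0.86. Without the striatal-like subcluster, the ratios of Adamts19 were 1.94 and 2.92. The fibroblast markers summed to 95.6 and 67.0 CPM in lesional and to 46.5 and 41.5 CPM in parenchymal inhibitory-neuron-like nuclei. Of the remaining genes, the shedding proteases ran from -0.34 to 0.45 in the control and from -0.52 to 0.14 in the Cxcl12-cKO library. Adam22 was at 0.28 and 0.16, and Adam23 at 0.07 and 0.43. The ADAMTS-like genes ran from -1.55 for Adamtsl3, on 1 lesional UMI, to 1.66 for Adamtsl1 in the control, and from -0.19 to 0.50 in the Cxcl12-cKO library. Adamts12 was at 1.27 and -0.51, and the fibrillin-linked Adamts17 and Adamts6 were both at 0.80 in the control and at -0.12 and -0.20 in the Cxcl12-cKO library. These 3 thus lay on opposite sides of 0 in the libraries.

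Parenchymal excitatory-neuron-like nuclei served as a view outside the cells that carry the Cre. None of 37 genes passed 1.5-fold between genotypes, beside 2.38% of all 16653 features higher and 1.33% lower (3.71% either way), and the median log2 ratio was 0.02. The shedding proteases ran from -0.25 for Adam19 to 0.51 for Adam12, the LGI-binding ADAMs from 0.00 for Adam11 to 0.02 for Adam22 and Adam23, and the hyalectanases from -0.40 for Adamts5 to 0.56 for Adamts9. Of the procollagen and COMP-cleaving enzymes, Adamts3 was at 0.26 (0.17 to 0.34), Adamts2 at -0.08 and Adamts12 at 0.31. The fibrillin-linked genes ran from -0.48 for Adamts19, on 90 and 63 UMIs, to 0.32 for Adamts6, and the ADAMTS-like genes from -0.28 for Adamtsl2 to 0.31 for Adamtsl5. Adamts16 was at 0.14 and Adamts18 at -0.05. The genes best known from testis ran from -0.28 for Adam2 to 0.39 for Adam21. Adam12 was at 9.98 and 14.2 CPM, a ratio of 0.51 (0.32 to 0.70), with 0.44 in female and 0.43 in male mice. Of the 37 partner genes compared, A2m, Ltbp2 and Col3a1 were higher by more than 1.5-fold, at 1.47, 0.86 and 0.78, on 17, 38 and 155 UMIs in the control.

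Nuclei assigned to the female and the male mouse were also compared within each library. In parenchymal excitatory-neuron-like nuclei, 37 genes were compared and 2 passed 1.5-fold the same way in both libraries. Adam23 was at 294 CPM in the female and 169 CPM in the male mouse of the control library, a log2 ratio of 0.80 (0.73 to 0.86), and at 289 and 185 CPM in the Cxcl12-cKO library, a ratio of 0.65 (0.58 to 0.71); 1.1% of all features were higher in this way. Adamts2 was at 17.2 and 27.0 CPM and at 15.4 and 27.2 CPM, with ratios of -0.65 and -0.82, beside 1.09% of all features lower. In lesional fibroblast-like nuclei 0 of 35 genes passed (1.19% and 0.429% of all features), and Adam23 was at -0.68 in the control and 0.46 in the Cxcl12-cKO library. Each library held 1 mouse of each sex, so sex and mouse cannot be told apart, and the make-up of the neurons by mouse was not tested.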

How the data were processed

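Nuclei of the PT lesion and the surrounding parenchyma of control and Cxcl12-cKO mice were profiled at 21 dpi by Chromium single-nucleus RNA-seq with multiplexing tags, 1 library per genotype. Per the labels, the authors ran Cell Ranger 9.0.0 on GRCm39; its settings are not known here. The deposited values are raw UMI counts per gene and barcode, 1 matrix per library and region, and 0 columns of per-sample values were left unused. Of 23489 barcodes, 21743 were kept between 757 and 36244 UMIs and 584 and 6419 genes (the outer 2.5% at each end removed) and below 8.75% mitochondrial UMIs. Nuclei were clustered with scanpy 1.11.5 (Leiden resolution 0.25) without ADAM, ADAMTS, sex-linked, mitochondrial and Cxcl12 genes, and named from fixed marker lists. Naming limits, and the removal of subclusters with at least 25% of nuclei holding UMIs of both sexes, were set after the clusters were seen. Scrublet called 259 lesional and 2 parenchymal doublets in the control and 274 and 3 in the Cxcl12-cKO library, and these were kept.

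For each library, UMIs of the nuclei in a class were added up and expressed as CPM, with exact Poisson intervals. The log2 ratios had 0.5 added to each sum and exact conditional binomial intervals (95%), and needed 50 UMIs. Calls were made at 1.5-fold, with no test, since each group is 1 library and nuclei are not replicates. Median UMIs per kept nucleus were 2962 and 2975 in lesions and 15915 and 16648 in parenchyma. Named with values were the genes counted for a class, state or ratio, all genes of a ratio where fewer than 4 were past 1.5-fold, and role groups. The genes and lists were chosen with earlier results of these data known. Scripts were tested on simulated data. Gene overlaps came from RefSeq (GRCm38.p6), whose coordinates are not printed. Alternatives covered resolution, doublets, mouse, class assignment, weighting, scaling, count minimum and composition.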

Additional observations from a re-analysis of the deposited data

Results flagged for a closer look

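The following pairs of values pointed opposite ways, each with a counting interval clear of 0 on both sides, and none of these differences was tested. In lesional fibroblast-like nuclei, the log2 ratio of Cxcl12-cKO over control was 0.74 in female and -0.40 in male mice for Adam23, 0.35 and -0.12 for Adam12, and 0.17 and -0.16 for Adamtsl3. Late-inner-like nuclei, in which Adam23 was highest, were 307 of 1723 in the female control and 437 of 1434 in the female Cxcl12-cKO mouse. In the male mice they were 433 of 1537 and 558 of 1589, and their part in these ratios was not tested. In lesional myeloid-like nuclei, Adam8 was at 0.85 in female and -0.33 in male mice. In parenchymal excitatory-neuron-like nuclei, Adamtsl1 was at 0.33 and -0.13. Each library held 1 mouse of each sex, so sex and mouse cannot be told apart. In inhibitory-neuron-like nuclei, Adamts3 had a lesion-over-parenchyma ratio of -0.63 in the control and 0.74 in the Cxcl12-cKO library, beside a striatal-like share of lesional nuclei of 7.02% and 36.2%.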

How the results depend on the processing

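No paired analysis was possible because each genotype was 1 library and the labels give no replicate numbers. The mouse of each nucleus was inferred from sex-linked counts, and the values in female or male mice alone, which leave out 1 mouse per genotype, carry no test. TMM scaling and fibroblast, myeloid or neuron composition held fixed moved no count by more than 1.5-fold; TMM moved the median of all genes in excitatory neurons from -0.18 to -0.07 in the control. Counts that moved were as follows, and the cause was not tested. The share of all features was not computed for the alternatives, so these counts have no background beside them. At resolution 0.5, 3 genes were counted for a fibroblast state in place of 10. In female mice alone, 8 genes were counted for a class in place of 17, 7 between genotypes in fibroblasts in place of 4, and 4 in parenchymal neurons in place of 0. In male mice alone these were 2 in fibroblasts, 1 in myeloid nuclei in place of 6, 5 by region in excitatory neurons in place of 8, and 1 in parenchymal neurons. With nuclei classed one by one from their own markers, 7 genes were counted for a class, 2 in myeloid nuclei, 17 by region in excitatory and 16 in inhibitory neurons in place of 3. By region in inhibitory neurons, 5 were counted with high Scrublet scores removed, 5 by mean CPM per nucleus, 5 at a minimum of 20 UMIs and 6 with subclusters of both sexes kept. In parenchymal neurons, 1 was counted without nuclei of both sexes (Adamts5), 4 by mean CPM and 1 at 20 UMIs. In myeloid nuclei 2 were counted at 100 UMIs. The last alternative on subclusters, the left-out classes, the striatal subcluster, the dividing myeloid state (5 genes counted without it) and the fixed myeloid and neuron composition were chosen after seeing the data.

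Directions turned for these log2 values of the counted class or state over the next. In female mice (control) they were -1.02 for Adam1a, -1.43 for Adam8, -0.19 for Adamts20 by class, and -0.57 for Adamts18 and -0.39 for Adamts20 by state. Adam8 was at -0.031 in male mice (Cxcl12-cKO). By own markers they were -0.11 for Adam8, -1.02 for Adam18, -0.23 for Adamts14, -0.10 for Adam2 and -0.44 for Adamts5 (Cxcl12-cKO), and -0.23 for Adamts19 (control). Adam2 (control) was at -0.17 with high Scrublet scores removed and -0.10 by mean CPM, and Adam1a at -0.15 with subclusters of both sexes kept. The regional ratio of Adamts5 in excitatory neurons was 0.48 and 0.83 by own markers and 0.14 (control) with those subclusters kept, where Adamtsl3 in myeloid nuclei was at -0.043.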

Other observations

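Adam12 was higher in the Cxcl12-cKO library in 10 of 10 classes other than fibroblast-like and osteoblast-lineage-like, with an interval above 0 in 7 of them. In lesional fibroblast-like nuclei its log2 ratio was 0.13, with 0.35 in female and -0.12 in male mice. In osteoblast-lineage-like nuclei Adam12 was lower. The fibroblast marker sum was lower in 8 of those 10 other classes and higher in 2. That list holds Col1a2, which was itself lower in lesional fibroblast-like nuclei, at -0.46. Of 5460 features detected in all 10 classes, 8 (0.147%) were higher in each, and Adam12 was the only one among the 12 ADAM and ADAMTS genes that were detected in all of them. The pattern was noticed in the data, the classes share a library, and its cause was not tested.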
